A study of Rattus norvegicus with 20 samples.

Results

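Aquaporins are membrane channels that let water, and in some members glycerol, pass along an osmotic or concentration gradient. The 9 genes described here (Aqp1, Aqp2, Aqp3, Aqp4, Aqp5, Aqp6, Aqp7, Aqp8 and Aqp11) were taken by gene symbol from a table of 30560 genes measured in rat kidney cortex and left ventricle. The 9 symbols matched 10 rows of the table, because a second row carrying the symbol Aqp6 is listed at 0 in all 20 libraries and was set aside. In the kidney, Aqp1 carries water across the proximal tubule and the thin descending limb, while Aqp2, Aqp3 and Aqp4 work in the principal cells of the collecting duct. Vasopressin, acting through its V2 receptor and cyclic AMP, moves Aqp2 vesicles to the apical membrane, and water leaves the cell through Aqp3 and Aqp4 on the basolateral side. Aqp6 lies in vesicles of acid-secreting intercalated cells, Aqp7 passes glycerol and water in the straight proximal tubule, in fat cells and in heart muscle, and Aqp11 is an intracellular member of the proximal tubule.

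The rats were 10 males of a hypertensive stock whose strain the labels do not name and whose genotype they give as WT. Every animal received a blood pressure telemeter at 8 weeks of age, ate a diet with 4% NaCl for 3 weeks, and carried a subcutaneous osmotic minipump over those 3 weeks. Maresin 1 (MaR1) is a lipid mediator made by macrophages from an omega-3 fatty acid. The pump held MaR1 at 1.3 µg/kg/day or less in 5 rats (RB035 to RB039), or vehicle in 5 rats (RB030 to RB034). Each rat gave 1 library of kidney cortex, from 1 kidney, and 1 of left ventricle, so the 20 libraries form 4 groups of 5 separate animals: MaR1 kidney, vehicle kidney, MaR1 heart and vehicle heart. The salt diet, telemeter and pump were common to all groups, and no group on a normal salt diet was analysed here.

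The values are FPKM as deposited, so fragments per length of gene model and per library size. That size was not the count of assigned fragments but was proportional to the median over genes of a library's fragments relative to all libraries. It was 34941948 against 27365595 assigned fragments in kidney RB030, and 22955463 against 28063576 in heart RB031. Sizes lay above the assigned fragments in kidneys and below them in hearts, so comparisons between the organs carry this scaling. Libraries held 19383232 to 30342034 assigned fragments, and 1 FPKM of a gene with a model of 1 kb stood for 19.7 to 34.9 fragments. The organ labels matched the contents: 7 cardiomyocyte markers summed to 12045 to 19966 FPKM in hearts and at most 1.44 FPKM in kidneys, and 10 markers of the convoluted proximal tubule summed to 2333 to 5259 FPKM in kidneys and at most 28.6 FPKM in hearts. Other regions were present as well. Upk1a, a urothelial gene of the renal pelvis, passed 1 FPKM in MaR1 kidneys RB036 (4.33), RB038 (11.0) and RB039 (23.8) and in vehicle kidney RB034 (1.47), and the atrial gene Myl7 passed 10 FPKM in MaR1 hearts RB035 and RB038 and vehicle hearts RB031, RB033 and RB034. In bulk tissue, fewer cells of a type and less RNA per cell cannot be told apart.

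Members lie on several chromosomes, at the positions the table gives with Ensembl identifiers; the sources used here do not give the genome build behind these positions. Aqp2 (ENSRNOG00000054378, chr7:130711413-130716468, plus strand) and Aqp5 (ENSRNOG00000051970, chr7:130721748-130726209, plus strand) both fall inside the span the table gives for Aqp6 (ENSRNOG00000063448, chr7:130633579-130735194, plus strand), which also overlaps Faim2 on the minus strand, a gene at a mean of 0.125 FPKM in kidneys. How reads in the shared stretch were divided among the 3 aquaporin genes cannot be told from the table, so the Aqp2, Aqp5 and Aqp6 values are uncertain to that extent. The second Aqp6 row, listed at 0 in every library, has the same span and strand. Whether reads were lost between the Aqp6 rows cannot be told either. Aqp3 (ENSRNOG00000009797, chr5:56239201-56244720) and Aqp7 (ENSRNOG00000009686, chr5:56172519-56186642) are near neighbours on the minus strand of chromosome 5 and do not overlap. Aqp1 (ENSRNOG00000011648, chr4:84482512-84494690, plus strand), Aqp4 (ENSRNOG00000016043, chr18:6507903-6524856, minus strand), Aqp8 (ENSRNOG00000014652, chr1:177993305-177999158, plus strand) and Aqp11 (ENSRNOG00000013358, chr1:152046517-152056725, minus strand) overlap no other gene in the table.

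RefSeq promoters (build GRCr8) were found for 8 of the 9 members, Aqp7 being the one without an entry. The 250 bases before the start are shown for Aqp2 and Aqp3, the apical and basolateral channels of the principal cell, and for Aqp1, the most abundant member in both organs. Capitals mark matches to 5 motifs, each searched on both strands, so that a match on the other strand shows as the reverse complement. TGACG is the half-site of the element through which cyclic AMP acts on transcription, and it reads CGTCA on the other strand. Factors of the GATA family bind AGATAA, which reads TTATCT on the other strand. The palindrome CACGTG is the core of an E-box, where helix-loop-helix proteins bind. Just before the start of many genes lies a TATA box, searched as TATAAA. SP1, a general activator, binds GGGCGG, which reads CCGCCC on the other strand. The marked matches do not overlap one another.
Aqp2 promoter, chr7:132590036-132590285, plus strand: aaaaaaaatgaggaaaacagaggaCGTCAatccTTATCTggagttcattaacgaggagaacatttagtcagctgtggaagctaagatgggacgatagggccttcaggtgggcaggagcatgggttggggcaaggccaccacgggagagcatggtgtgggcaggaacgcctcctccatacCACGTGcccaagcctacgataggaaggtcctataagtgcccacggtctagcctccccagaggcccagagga
Aqp3 promoter, chr5:61040684-61040933, minus strand: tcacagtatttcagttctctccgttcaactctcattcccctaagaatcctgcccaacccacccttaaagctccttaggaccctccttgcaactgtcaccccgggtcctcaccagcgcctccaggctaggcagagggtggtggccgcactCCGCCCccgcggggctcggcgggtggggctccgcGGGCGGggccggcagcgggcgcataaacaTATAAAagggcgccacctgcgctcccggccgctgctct
Aqp1 promoter, chr4:85812534-85812783, plus strand: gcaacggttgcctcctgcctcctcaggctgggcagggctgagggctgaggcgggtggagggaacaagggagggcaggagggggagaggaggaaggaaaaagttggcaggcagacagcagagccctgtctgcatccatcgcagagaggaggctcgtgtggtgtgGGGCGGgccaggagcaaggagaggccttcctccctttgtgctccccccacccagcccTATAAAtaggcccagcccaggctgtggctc
Counting back from the start, Aqp2 held CGTCA at -226, TTATCT at -217 and CACGTG at -71. Aqp3 held none of these 3 and had CCGCCC at -101, GGGCGG at -67 and TATAAA at -38, and Aqp1 had GGGCGG at -87 and TATAAA at -30. Among 33469 promoters of the same length, 18.2% held TGACG or its complement, 10.3% AGATAA, 5.59% CACGTG, 12.9% TATAAA and 30.5% GGGCGG. A match describes the letters in this window and is not a measured binding site.

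In the kidneys the members spanned more than 3 orders of magnitude per gene length, led by Aqp1 and followed by Aqp2, Aqp7, Aqp3, Aqp11, Aqp6, Aqp4, Aqp5 and Aqp8. Mean levels over the 10 kidneys were 548 ± 98.5 FPKM for Aqp1, 141 ± 48.1 for Aqp2, 81.5 ± 11.0 for Aqp7, 53.4 ± 11.7 for Aqp3, 21.6 ± 4.20 for Aqp11, 13.7 ± 2.88 for Aqp6, 1.57 ± 1.31 for Aqp4, 0.377 ± 0.147 for Aqp5 and 0.0987 ± 0.109 for Aqp8 (SD, n = 10). The ranges of 3 neighbouring pairs in this order, Aqp1 and Aqp2, Aqp3 and Aqp11, and Aqp6 and Aqp4, did not overlap. The ranges of Aqp2 and Aqp7, Aqp7 and Aqp3, Aqp11 and Aqp6, Aqp4 and Aqp5, and Aqp5 and Aqp8 did overlap, although within a kidney Aqp2 was above Aqp7 in 10 of 10 and Aqp7 above Aqp3 in 9 of 10. Aqp1 made up 54.7% to 69.0% of the summed FPKM of the 9 members in kidneys.

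In the hearts 2 members were abundant. Aqp1, the channel of capillary endothelium there, averaged 314 ± 34.4 FPKM and Aqp7, the glycerol channel of cardiac muscle, 55.3 ± 20.5 FPKM (SD, n = 10), and their ranges did not overlap. The other 7 members lay below 0.5 FPKM in every heart, and 93 fragments over all 10 hearts was the highest total among them, for Aqp11. Aqp4, the channel of astrocytes and of the basolateral membrane of collecting duct cells, is listed at 0 in 8 of 10 hearts. Aqp5, the channel of salivary, lacrimal and airway glands, is listed at 0 in 6 of 10 hearts. The other family genes in the table, Mip, Aqp9 and Aqp12a, summed to at most 0.339 FPKM in any library.

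**Figure D1:**
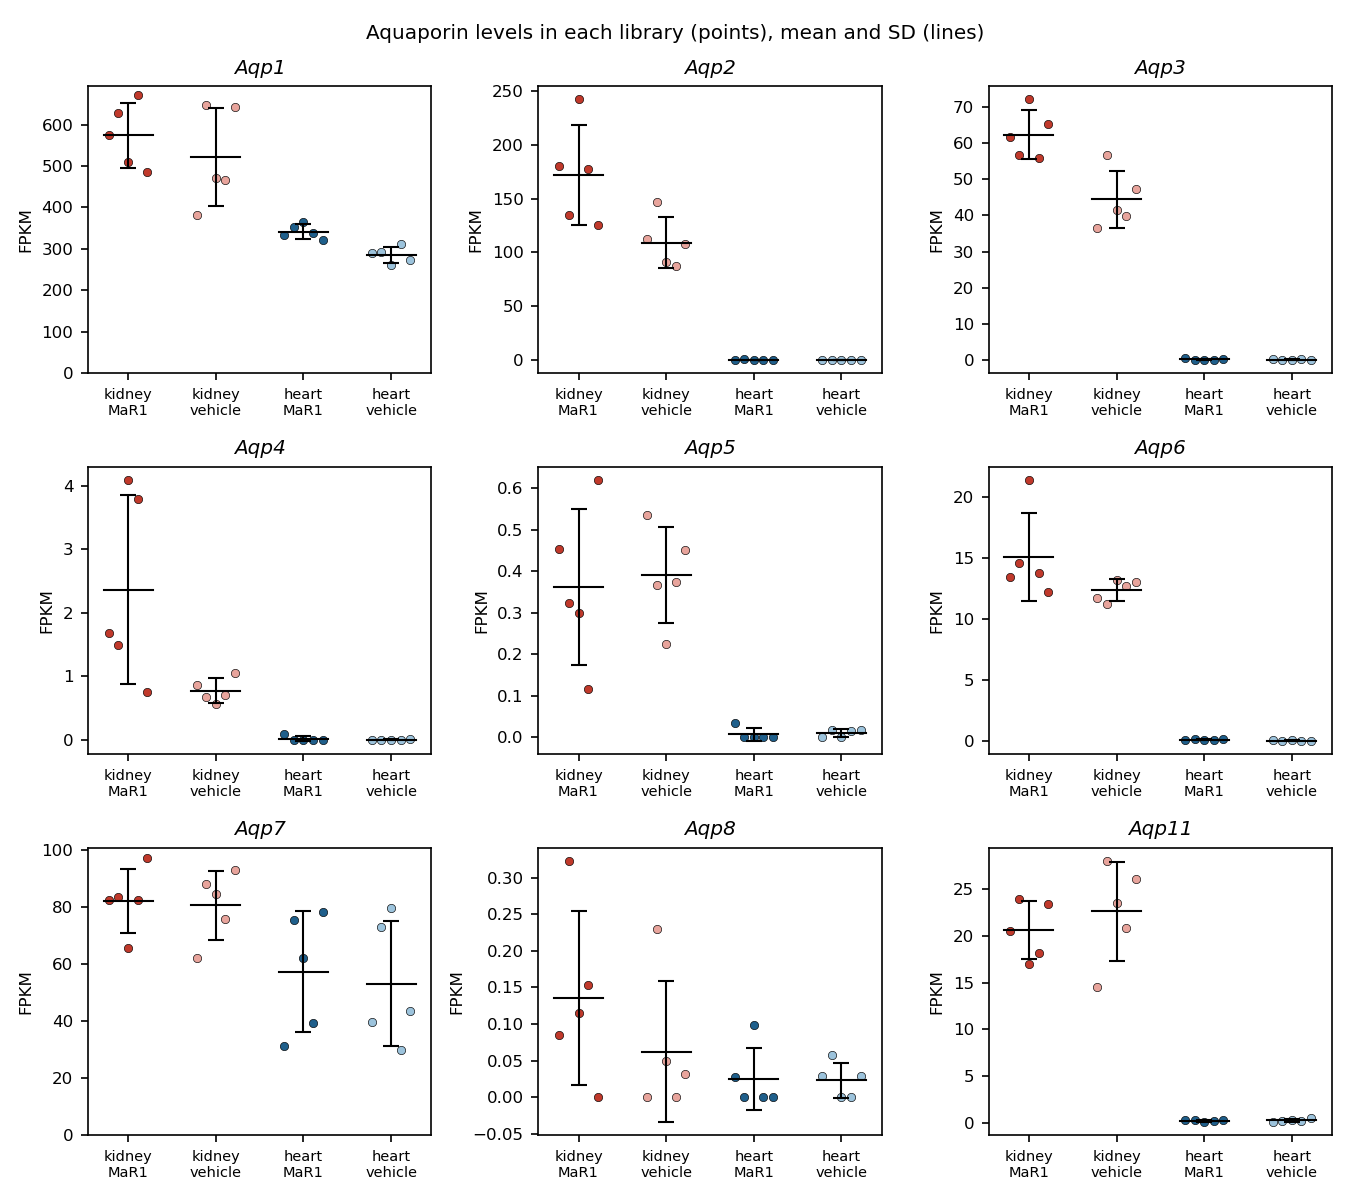
FPKM of each member (one panel per gene, each with its own linear axis) in the 4 groups. Points are single animals, the horizontal line is the mean and the whiskers are 1 SD (n = 5 per group); whiskers of trace levels can pass below 0. Aqp2 and Aqp3 stand at 87.5 to 242 and 36.6 to 72.2 FPKM in kidneys and below 0.5 FPKM in hearts, while Aqp1 and Aqp7 are abundant in both organs.

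The comparison of the organs asks which members belong to one tissue. All 6 members that passed the filter on low values (a mean of at least 1 FPKM over the 20 libraries) were called higher in kidney than in heart by limma with Benjamini-Hochberg adjustment. The organs differ in most genes: 84.6% of the 12984 genes tested were called, 5657 of them higher in kidney, and the members' count is read against that share. On the log2(FPKM + 0.5) scale, which understates differences of genes near 0 in heart, the kidney was higher by 7.66 ± 0.14 for Aqp2 (SE; limma adjusted p = 5.09e-21), 6.42 ± 0.11 for Aqp3 (limma adjusted p = 3.87e-21), 4.92 ± 0.12 for Aqp11 (limma adjusted p = 6.19e-19) and 4.64 ± 0.08 for Aqp6 (limma adjusted p = 2.06e-21). These 4 genes work in tubule cells, and kidney and heart ranges did not overlap for any of them. The members shared by both organs differed far less. Aqp1 was higher in kidney by 0.79 ± 0.09 (limma adjusted p = 6.49e-08), with no overlap between the organs, and Aqp7 by 0.64 ± 0.18 (limma adjusted p = 0.00329), with overlapping ranges of 62.2 to 97.4 FPKM in kidneys and 29.8 to 79.7 FPKM in hearts. Aqp4, Aqp5 and Aqp8 were under the filter. Every kidney exceeded every heart for Aqp4 and Aqp5, whereas Aqp8 overlapped.

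The collecting duct members carried the largest treatment differences in the kidney, although none passed the threshold. Aqp2 had 180, 135, 242, 177 and 125 FPKM in MaR1 kidneys RB035 to RB039, against 112, 147, 91.2, 87.5 and 107 FPKM in vehicle kidneys RB030 to RB034. In 3 of 5 MaR1 kidneys Aqp2 was above the highest vehicle kidney, all 5 were above the vehicle mean, and the groups overlapped through RB036 and RB039 on one side and RB031 on the other. Means were 172 ± 46.4 FPKM with MaR1 and 109 ± 23.7 FPKM with vehicle (SD, n = 5 each). The log2 difference was 0.64 ± 0.19 (SE; 95% interval 0.22 to 1.06), with an exact permutation p of 0.0238 and a limma adjusted p of 0.621. Aqp2 is the channel whose place in the membrane vasopressin sets.

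Aqp3, the basolateral water and glycerol channel, had 61.8, 56.8, 72.2, 55.8 and 65.3 FPKM in MaR1 kidneys RB035 to RB039, against 36.6, 56.8, 41.6, 39.8 and 47.3 FPKM in vehicle kidneys RB030 to RB034. Vehicle kidney RB031 reached the level of the lower MaR1 kidneys, and the other 4 vehicle kidneys were below every MaR1 kidney. Means were 62.4 ± 6.70 FPKM with MaR1 and 44.4 ± 7.93 FPKM with vehicle (SD, n = 5 each). The log2 difference was 0.50 ± 0.12 (SE; 95% interval 0.23 to 0.76), with an exact permutation p of 0.0238 and a limma adjusted p of 0.582. By unadjusted p it ranked 36 of 12446 genes, the highest rank of any member.

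Aqp4, the less abundant basolateral channel, had 1.68, 1.49, 4.09, 3.79 and 0.747 FPKM in MaR1 kidneys RB035 to RB039, against 0.870, 0.669, 0.558, 0.711 and 1.06 FPKM in vehicle kidneys RB030 to RB034. Kidneys RB037 and RB038 were far above the rest, RB039 lay within the vehicle range, and the highest MaR1 kidney held 5.48 times the lowest. These levels rest on 121 to 685 fragments per MaR1 kidney and 87 to 179 per vehicle kidney. The log2 difference was 1.01 ± 0.33 (SE; 95% interval 0.30 to 1.73), with an exact permutation p of 0.0238 and a limma adjusted p of 0.661.

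Aqp6 of the intercalated cell had 13.5, 14.6, 21.4, 13.8 and 12.2 FPKM in MaR1 kidneys RB035 to RB039, against 11.8, 11.2, 13.2, 12.7 and 13.1 FPKM in vehicle kidneys RB030 to RB034. Apart from RB037, all kidneys lay between 11.2 and 14.6 FPKM. The log2 difference was 0.25 ± 0.13 (SE), with an exact permutation p of 0.0635 and a limma adjusted p of 0.753.

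The proximal tubule members differed by less than the spread between animals. Aqp1 had 575, 628, 511, 673 and 485 FPKM in MaR1 kidneys RB035 to RB039, against 382, 647, 471, 465 and 643 FPKM in vehicle kidneys RB030 to RB034, and the groups overlapped over most of their ranges (log2 difference 0.16 ± 0.16, SE; limma adjusted p = 0.889). Aqp7 averaged 82.3 ± 11.2 FPKM with MaR1 and 80.7 ± 12.1 FPKM with vehicle (SD, n = 5 each), with a log2 difference of 0.03 ± 0.13 (SE; limma adjusted p = 0.990) and a 95% interval of -0.25 to 0.31. Aqp11, which in the mouse is needed for a healthy proximal tubule, averaged 20.6 ± 3.08 FPKM with MaR1 and 22.6 ± 5.26 FPKM with vehicle (SD, n = 5 each), a log2 difference of -0.11 ± 0.17 (SE; limma adjusted p = 0.943). Aqp5 and Aqp8, the least abundant members in the kidney, were under the filter, with 7 to 44 and 0 to 13 fragments per kidney and exact permutation p of 0.738 and 0.310.

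Over all genes, limma called 0% of the 12446 genes tested in kidney, while 840 had an unadjusted p under 0.05; limma voom on recovered fragments also called 0. Of the 7 members tested, 0 were called, and in 0 of 7 did the groups separate without overlap, against 1.23% of all genes tested. With the animal as replicate block, in 1 model of both organs, 6 genes were called in kidney and none was an aquaporin. Aqp4 is not in that model, since its mean over both organs is under 1 FPKM.

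**Figure D2:**
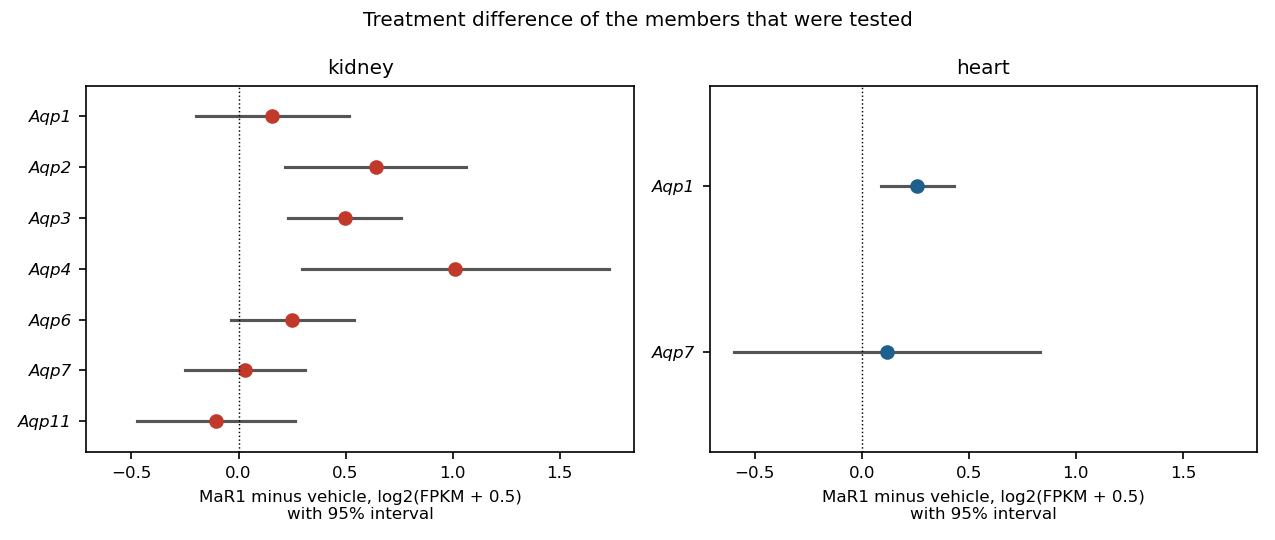
Difference between MaR1 and vehicle in log2(FPKM + 0.5) for the members that passed the filter in kidney (left panel) and heart (right panel). Points are limma estimates and lines their 95% intervals before adjustment over genes. The kidney intervals of Aqp2, Aqp3 and Aqp4 and the heart interval of Aqp1 lie above 0; no member passed the adjusted threshold.

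The labels call the kidney samples cortex, but markers of the medulla were present and differed between the treatment groups, beside every collecting duct result. An inner medulla score, the mean log2(FPKM + 0.5) of 10 markers of inner medulla and thin limb, was 2.12, 2.15, 3.14, 2.68 and 1.58 in MaR1 kidneys RB035 to RB039, against 1.12, 1.31, 0.94, 1.13 and 1.38 in vehicle kidneys RB030 to RB034. All 5 MaR1 kidneys were above all 5 vehicle kidneys, a difference of 1.16 with an exact permutation p of 0.00794, the smallest that 5 against 5 allows. Of 9 tested markers, 8 rose within the groups with the score they help to set, and 1 fell. Slc14a2 was at 0.0278 FPKM in MaR1 kidney RB035, within the vehicle range of 0 to 0.104 FPKM. In the other MaR1 kidneys Slc14a2 was at 0.260 to 3.83 FPKM. Akr1b1 was highest in RB039, at 25.6 FPKM, the MaR1 kidney of lowest score. The score therefore summarises this list and does not measure inner medulla alone. The summed FPKM of the 10 markers ranged from 65.8 to 250 in MaR1 kidneys and from 49.3 to 126 in vehicle kidneys. Much of this sum is 1 gene, Cryab, at 201 FPKM in RB038 and 111 FPKM in RB031, the highest kidney of each group. Of 9 tested members of this marker list, 9 were higher with MaR1 and 0 were called (median log2 difference 1.05, against 0.00 over all genes), and 7 of 8 thick ascending limb markers were higher (median 0.52). By contrast, 10 of 10 convoluted proximal tubule markers and 7 of 7 podocyte markers were lower with MaR1, with medians of -0.39 and -0.41, and 0 of either list were called.

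Markers of the cell types that hold Aqp2, Aqp3 and Aqp6 were split in direction. Of 8 tested principal cell markers, 4 were higher and 4 lower with MaR1 (median log2 difference 0.02, 0 called), and their summed FPKM ranged from 162 to 222 in MaR1 kidneys and from 178 to 212 in vehicle kidneys. Of 9 intercalated cell markers, 3 were higher and 6 lower (median -0.05, 0 called). Scnn1a, a subunit of the epithelial sodium channel, stood at 0.34 ± 0.09 and Fxyd4, a regulator of the sodium pump, at 0.63 ± 0.27 (log2 difference, SE; limma adjusted p = 0.588 and 0.721). Hsd11b2, the enzyme that shields the mineralocorticoid receptor in the distal nephron, ranged from 76.0 to 147 FPKM in MaR1 kidneys and from 111 to 144 FPKM in vehicle kidneys, with a log2 difference of -0.21 ± 0.15, the lowest of the 8 markers (SE; limma adjusted p = 0.831), and a slope of -0.43 ± 0.15 on the inner medulla score (SE; limma adjusted p = 0.182). Ratios to this gene, chosen with these values known, by construction widen the differences of Aqp2 and Aqp3. Relative to it, Aqp3 stood at 0.597 ± 0.128 with MaR1 and 0.363 ± 0.0754 with vehicle (SD, n = 5 each; exact permutation p = 0.0159), and Aqp2 at 1.70 ± 0.683 with MaR1 and 0.896 ± 0.229 with vehicle (n = 5 each, exact permutation p = 0.0556). The ratio of Aqp2 to Aqp3 was 2.75 ± 0.594 with MaR1 and 2.46 ± 0.372 with vehicle (n = 5 each, exact permutation p = 0.421). These were 3 of 6 ratios examined, with p not adjusted over them, and the remaining 3 had exact permutation p between 0.0635 and 0.167.

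Since the treatment groups do not overlap on the score, the relation of each member to medulla content was estimated within the groups, as a slope on the score with treatment in the model. Aqp4 rose with the score by 1.26 ± 0.17 log2 units per unit of score (SE; limma adjusted p = 0.0135), and was the 1 member called of 7 tested, where 2.15% of all 12446 genes were called. The call needs kidney RB039, which had the lowest score and the lowest Aqp4 of the MaR1 group: without that animal the slope was 1.18 and the limma adjusted p 0.346, with a range of 0.00111 to 0.346 over all alternatives. Over all genes 268 were called on the score with all animals and 0 without RB039. Aqp2 followed with a slope of 0.61 ± 0.17 (SE; limma adjusted p = 0.10) and Aqp6 with 0.39 ± 0.12 (SE; limma adjusted p = 0.132), neither of them called. The slope of Aqp3 was 0.13 ± 0.15 (SE; limma adjusted p = 0.740), with a 95% interval of -0.21 to 0.47. Slopes of Aqp1, Aqp7 and Aqp11 were 0.18, -0.25 and -0.23, with limma adjusted p of 0.741, 0.460 and 0.658.

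With the score held in the same model, the treatment differences of the collecting duct members took other values. Aqp2 had a log2 difference of -0.07, Aqp4 of -0.45 and Aqp6 of -0.20, all below 0, whereas Aqp3 kept a positive value of 0.34; the limma adjusted p were 0.977, 0.905, 0.919 and 0.905. The score and the treatment are nearly aligned in these 10 kidneys, so medulla content and MaR1 cannot be told apart for any member, Aqp3 included.

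Markers of urothelium, which expresses Aqp3, and of fat differed between kidneys too. Of 4 tested urothelium markers, 4 were higher with MaR1 (median log2 difference 2.19, 0 called), and the list summed to 0.510 to 87.2 FPKM in MaR1 kidneys, highest in RB039, and to 0.263 to 4.23 FPKM in vehicle kidneys. Of 6 tested adipocyte markers, 6 were higher with MaR1 (median 1.77, 0 called). The list summed to 28.7 to 519 FPKM in MaR1 kidneys and to 11.4 to 24.0 FPKM in vehicle kidneys, with no overlap. Single markers did not all separate. Plin1 was at 5.80 FPKM in RB036 and 45.0 FPKM in RB039. In RB035, RB037 and RB038 it was at 0.0565 to 0.125 FPKM, within the vehicle range of 0.0341 to 0.128 FPKM. Adipoq in these kidneys was at 4.26 to 4.78 FPKM, against 2.77 to 3.79 FPKM in vehicle kidneys. The part of urothelium and fat in the members' differences was not tested beyond leaving out kidneys. Leaving out the 4 kidneys with Upk1a above 1 FPKM kept 2 MaR1 kidneys, RB035 and RB037, of which RB037 had the highest medulla score, and 4 vehicle kidneys. In these the log2 differences were 0.96 for Aqp2, 0.63 for Aqp3 and 1.40 for Aqp4, with limma adjusted p of 0.241, 0.313 and 0.235. Over all alternatives the adjusted p ranged from 0.121 to 1.00 for Aqp2, from 0.138 to 1.00 for Aqp3 and from 0.0915 to 1.00 for Aqp4.

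**Figure D3:**
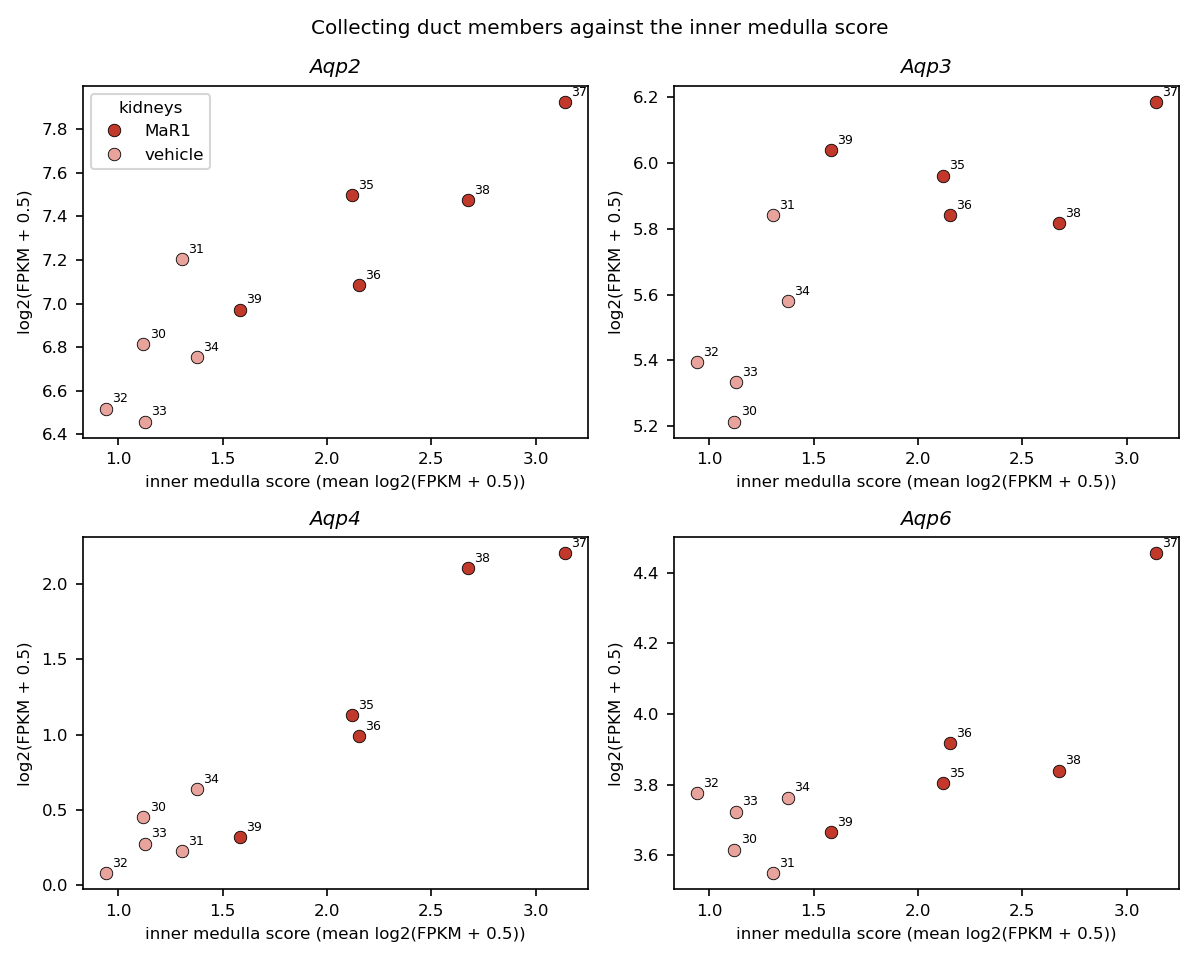
log2(FPKM + 0.5) of Aqp2, Aqp3, Aqp4 and Aqp6 against the inner medulla score in the 10 kidneys. Points are animals, labelled with the last digits of their number, dark for MaR1 and pale for vehicle. The MaR1 kidneys spread from 1.58 to 3.14 on the score with Aqp4 highest at the top, while Aqp3 in RB039, at a score of 1.58, is above all vehicle kidneys.

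The proximal tubule members were compared with markers of the segments they work in, a comparison chosen after these values were seen. The straight proximal tubule varied widely between kidneys: its 6 markers summed to 1154, 1125, 1029, 1665 and 221 FPKM in MaR1 kidneys RB035 to RB039, against 130, 1017, 466, 434 and 969 FPKM in vehicle kidneys RB030 to RB034. Kidney RB039 was the lowest of the MaR1 group and RB030 the lowest of the vehicle group. Aqp1 rose with a score of these markers by 0.35 ± 0.09 log2 units per unit (SE; limma adjusted p = 0.0338, where 6.99% of the 12446 genes were called), and it was lowest in vehicle kidney RB030 and, within the MaR1 group, in RB039. The call was lost when any 1 of 8 animals (RB030 to RB036 and RB038) was left out and when no filter on low values was used, with an adjusted p between 0.00881 and 0.106 and a slope between 0.22 and 0.49 over all alternatives. The lowest slope came with quantile scaling. Against the score of 10 convoluted proximal tubule markers, on which 8.32% of genes were called, the slope of Aqp1 was 0.00 ± 0.24 (SE; limma adjusted p = 0.998).

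Aqp7 and Aqp11 had larger slopes on the convoluted than on the straight segment, with none of the 4 called and the difference between the slopes not tested. Their slopes on the convoluted score were 0.39 ± 0.14 for Aqp7 (SE; limma adjusted p = 0.123) and 0.49 ± 0.20 for Aqp11 (SE; limma adjusted p = 0.151), and their slopes on the straight score were 0.06 ± 0.11 and 0.16 ± 0.14 (limma adjusted p = 0.816 and 0.584). Kidney RB039 stands apart here: it was second lowest in straight tubule markers and had the highest Aqp7 of all kidneys, 97.4 FPKM. The same kidney held 120 FPKM of Adipoq, made by fat cells that also express Aqp7. Its level was 4.26 to 13.2 FPKM in MaR1 kidneys RB035 to RB038, and vehicle kidneys had 2.77 to 3.79 FPKM. Kidney RB036, with 13.2 FPKM of Adipoq, had 83.5 FPKM of Aqp7, within the vehicle range. RB039 also had the highest convoluted proximal tubule score, 8.20. The part of fat or of tubule content in its Aqp7 level was not tested. Without RB039 the treatment difference of Aqp7 was -0.03. Without that animal the slopes on the straight score were 0.32 for Aqp7 (limma adjusted p = 0.0432) and 0.46 for Aqp11 (limma adjusted p = 0.0442), with adjusted p up to 0.980 and 0.823 over all alternatives. The score of principal cell markers ranged from 2.61 to 2.85 over the 10 kidneys and that of intercalated cell markers from 3.87 to 4.68, and 0% of genes were called on either. On them the slopes were 0.06 ± 1.74 for Aqp2 and 1.83 ± 0.92 for Aqp3 on the principal cell score and -0.02 ± 0.32 for Aqp6 on the intercalated cell score (SE; limma adjusted p of at least 0.957).

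**Figure D4:**
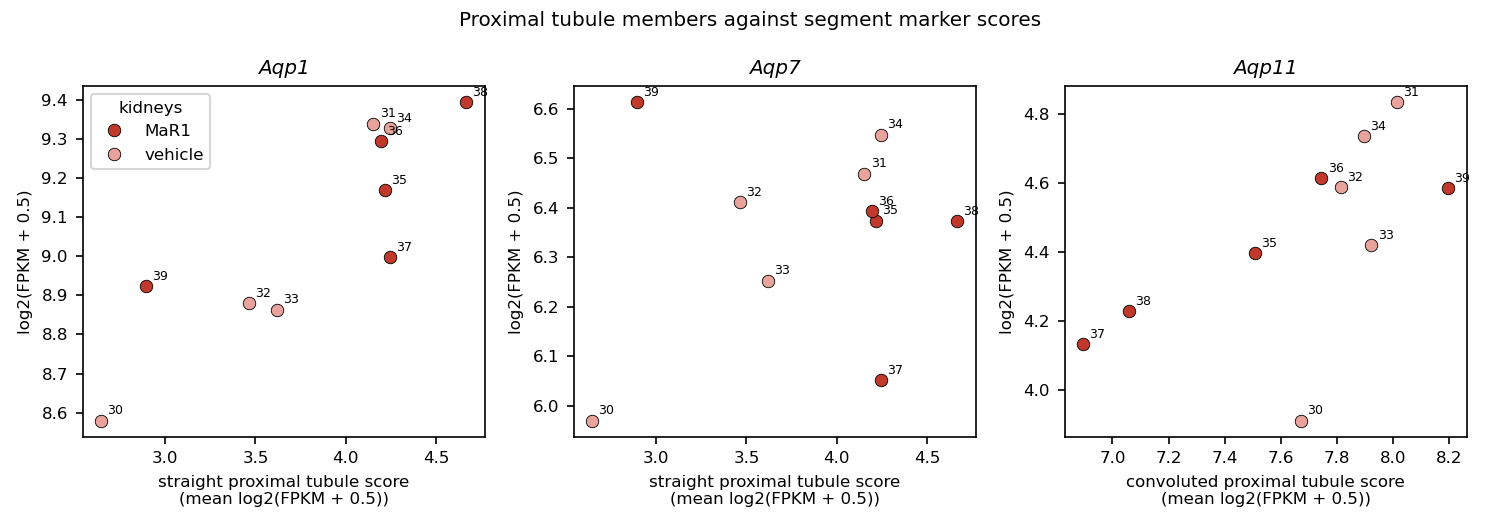
log2(FPKM + 0.5) of Aqp1 and Aqp7 against the straight proximal tubule score, and of Aqp11 against the convoluted proximal tubule score, in the 10 kidneys (dark points MaR1, pale points vehicle, labelled with the last digits of the animal number). RB030 is lowest for all 3 genes, and RB039 combines a low straight tubule score with the highest Aqp7.

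Over the 10 kidneys likeness among the members is described here by Pearson's r of log2(FPKM + 0.5). Differences in treatment and medulla content between the kidneys were not removed and enter every r. Aqp2 followed Aqp4 (r = 0.839) and Aqp3 (r = 0.822), Aqp4 followed Aqp6 (r = 0.766), and Aqp7 followed Aqp11 (r = 0.857), while Aqp4 and Aqp11 had an r of -0.479. Among 11196 named genes, Cyfip2 (r = 0.948), Ptger3 (r = 0.937), a prostaglandin E2 receptor, and Nipal1 (r = 0.933) were most like Aqp2. For Aqp3 they were Stk39 (r = 0.940), a kinase that acts on salt cotransporters, Tmem50b (r = 0.934) and Bcl2l14 (r = 0.918). Emb (r = 0.976) and Srgap3 (r = 0.975) were among the genes most like Aqp4. Cldn15 (r = 0.947), Sned1 (r = 0.937) and Epn3 (r = 0.933) were most like Aqp6.

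Among the proximal tubule members, Aqp11 had the closest matches. Glrx5 (r = 0.991), Slc27a2 (r = 0.988), a fatty acid transporter of the proximal tubule, and Amn (r = 0.988), the partner of cubilin in proximal endocytosis, were most like Aqp11. Mpp6 (r = 0.989), Sardh (r = 0.983) and Exoc4 (r = 0.982) were most like Aqp1, and Lca5 (r = 0.970), Bscl2 (r = 0.962), the lipid droplet protein seipin, and Mrpl49 (r = 0.960) were most like Aqp7.

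In the heart, Aqp1 was, of the 2 members tested, the one whose treatment groups separated. It had 333, 353, 364, 339 and 320 FPKM in MaR1 hearts RB035 to RB039, against 291, 292, 261, 313 and 273 FPKM in vehicle hearts RB030 to RB034. The lowest MaR1 heart was above the highest vehicle heart, and means were 342 ± 17.0 FPKM with MaR1 and 286 ± 19.9 FPKM with vehicle (SD, n = 5 each). The log2 difference was 0.26 ± 0.08 (SE; 95% interval 0.09 to 0.43), with an exact permutation p of 0.00794, the smallest the design allows. It did not pass over all genes (limma adjusted p = 0.962): 0% of the 12237 genes tested in heart were called, and 563 had an unadjusted p under 0.05; limma voom also called 0. The groups of 0.842% of tested genes separated without overlap, and 1 of the 2 members tested, Aqp1, was among them.

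Cell makeup also varied between hearts. Of 8 endothelial markers, 6 were higher and 2 lower with MaR1 (median log2 difference 0.07, 0 called), and their summed FPKM ranged from 293 to 422 in MaR1 hearts and from 313 to 395 in vehicle hearts. As a percentage of that sum, Aqp1 stood at 94.0 ± 12.1 with MaR1 and 83.1 ± 8.73 with vehicle (SD, n = 5 each; exact permutation p = 0.143), and these ratios overlapped between the groups. All 3 atrial markers tested had lower means with MaR1, with 0 called, and the list summed to 13.7 to 1445 FPKM over 4 genes in MaR1 hearts and 45.6 to 3384 FPKM in vehicle hearts. Leaving out the 5 hearts with Myl7 above 10 FPKM kept only MaR1 hearts RB036, RB037 and RB039 and vehicle hearts RB030 and RB032. In these the difference of Aqp1 was 0.33 (limma adjusted p = 0.657, with a range of 0.548 to 1.00 over all alternatives).

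Aqp7, the route of glycerol into heart muscle, had 31.3, 75.7, 62.3, 39.4 and 78.3 FPKM in MaR1 hearts RB035 to RB039, against 39.6, 73.1, 79.7, 29.8 and 43.5 FPKM in vehicle hearts RB030 to RB034. Both groups held high and low hearts, a 2.67-fold spread over the 10 animals, and the log2 difference was 0.12 ± 0.32 (SE; limma adjusted p = 1.00). In the 5 hearts with Myl7 above 10 FPKM, Aqp7 stood at 31.3 and 39.4 FPKM with MaR1 and at 73.1, 29.8 and 43.5 FPKM with vehicle. In the 5 others it stood at 75.7, 62.3 and 78.3 FPKM with MaR1 and at 39.6 and 79.7 FPKM with vehicle, and the part of atrial tissue in this spread was not tested. The genes most like Aqp7 over the hearts were Lrrc39 (r = 0.993), a sarcomere protein, Acaa2 (r = 0.992), an enzyme of mitochondrial fatty acid oxidation, and Sdr39u1 (r = 0.989), among 11042 named genes. Aqp7 and Aqp1 had an r of -0.076 across hearts, and Htr1b (r = 0.923), Zbtb10 (r = 0.922) and H2az2 (r = 0.913) were most like Aqp1.

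**Figure D5:**
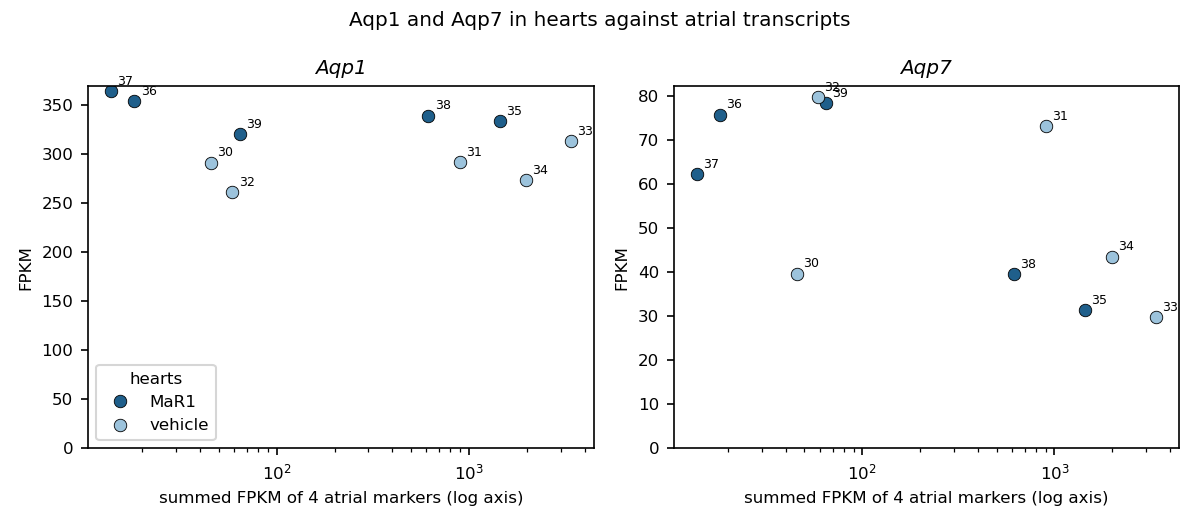
FPKM of Aqp1 (left) and Aqp7 (right) against the summed FPKM of 4 atrial markers (log axis) in the 10 hearts, dark for MaR1 and pale for vehicle, labelled with the last digits of the animal number. Aqp1 in the MaR1 hearts lies between 320 and 364 FPKM, above all vehicle hearts, and Aqp7 spans 29.8 to 79.7 FPKM in both groups together.

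The tubule members were at trace level in hearts. Aqp6 had 12 fragments over the 5 MaR1 hearts and 4 over the 5 vehicle hearts, with an exact permutation p of 0.0159; Aqp2 had 34 over the MaR1 hearts and 23 over the vehicle hearts (exact permutation p = 0.238), and Aqp3 had 34 over the MaR1 hearts and 20 over the vehicle hearts (exact permutation p = 0.452). Transcripts of 39 other kidney genes were found in hearts as well, at 0.405 ± 0.156% of their kidney level in MaR1 hearts and 0.174 ± 0.0669% in vehicle hearts (SD, n = 5 each). These 39 genes were picked for a high kidney level and a heart mean at a small share of it. That choice kept their percentage low in advance, so it sets no bound for the members. Aqp6 in hearts was at 0.700% of its kidney level with MaR1 and 0.222% with vehicle, and Aqp2 at 0.166% with MaR1 and 0.0883% with vehicle. Aqp11 was at 1.04% with MaR1 and 1.08% with vehicle. The part of what these kidney transcripts share in the Aqp6 difference was not tested.

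Whether MaR1 acted differently on a member in the 2 organs was tested as an interaction. For all 6 members tested, the 95% interval of the difference of the responses, kidney minus heart, held 0. The difference was 0.39 ± 0.27 for Aqp2, 0.34 ± 0.22 for Aqp3, -0.10 ± 0.18 for Aqp1, 0.08 ± 0.15 for Aqp6, -0.09 ± 0.37 for Aqp7 and -0.10 ± 0.23 for Aqp11 (SE; limma adjusted p of at least 0.980). Of 12984 genes, 0% were called, 714 had an unadjusted p under 0.05, and limma voom called 0. The values for Aqp2, Aqp3, Aqp6 and Aqp11 set a kidney response against a heart level near 0, where the pseudocount governs the scale; with a pseudocount of 0.1 the values of Aqp2 and Aqp6 were -0.12 and -0.35, and with limma voom they were -1.04 and -1.31.

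Genes around the channels were read from lists for vasopressin signalling, Aqp2 vesicle traffic, transcription, Aqp4 anchoring and glycerol metabolism, none of which held a gene called for treatment in either organ. Of 7 tested vasopressin and cyclic AMP genes, 5 were higher and 2 lower with MaR1 in kidney, and the V2 receptor Avpr2 is listed at 0 in all 20 libraries, in a stretch where the table also places Arhgap4 on the opposite strand. The adenylyl cyclases Adcy3 (0.15 ± 0.14) and Adcy6 (0.08 ± 0.08) had the smallest p in this list in kidney (log2 difference, SE; limma adjusted p = 0.866 and 0.889). Of 10 genes of Aqp2 vesicle traffic, 5 were higher and 5 lower. Mal, a raft protein that holds Aqp2 at the apical membrane, stood at 0.43 ± 0.12 (SE; limma adjusted p = 0.603) and the syntaxin Stx4 at 0.08 ± 0.06 (SE; limma adjusted p = 0.838). Mal also rose with the inner medulla score, by 0.43 ± 0.08 per unit (SE; limma adjusted p = 0.0264), a model in which 0 genes were called without RB039.

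Of 6 tested transcription factors of Aqp2 and of the osmotic response, 4 were higher and 2 lower in kidney, led by Gata2 at 0.27 ± 0.11 and Grhl2 at 0.38 ± 0.16 (log2 difference, SE; limma adjusted p = 0.715 and 0.716). In the complex that anchors Aqp4, 2 of 4 were higher, with utrophin (Utrn) at 0.17 ± 0.08 (SE; limma adjusted p = 0.753). Of 7 glycerol genes, 5 were higher and 2 lower in kidney, the lipases Lipe at 0.72 ± 0.55 and Lpl at 0.55 ± 0.56 having the smallest p (SE; limma adjusted p = 0.835 and 0.889), in kidneys whose fat markers differed as given above.

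In heart the same lists gave 5 of 7, 1 of 9, 1 of 2, 2 of 6 and 6 of 7 tested genes higher with MaR1, in the order vasopressin, vesicle traffic, transcription, anchoring and glycerol. The genes of smallest p there were Adcy6 at 0.22 ± 0.10, the stimulatory G protein Gnas at 0.14 ± 0.08, Mal at -0.38 ± 0.32, Rab11a at -0.06 ± 0.06, Gata2 at 0.15 ± 0.09, Nfat5 at -0.08 ± 0.10, Utrn at 0.21 ± 0.08, the syntrophin Sntb1 at -0.25 ± 0.15, and the lipases Mgll at 0.11 ± 0.10 and Pnpla2 at 0.14 ± 0.18 (log2 difference, SE; all with a limma adjusted p of 1.00). Adcy6 and Utrn were positive in both organs, and Mal was positive in kidney and negative in heart, where the difference of the responses, kidney minus heart, was 0.81 ± 0.35 (SE; limma adjusted p = 0.881).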

How the data were processed

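Messenger RNA libraries of kidney cortex and left ventricle from 10 rats were grouped by treatment and organ as the labels give them, and replicates carry the animal's number. FPKM values were computed by the authors and deposited as 1 table. Tools named in the submitters' processing notes were fastp, HISAT2 2.0.5, StringTie 1.3.3b and featureCounts 1.5.0-p3. The sources used here give neither the genome build nor the strandedness of counting, and genes that overlap cannot be told apart with certainty. FPKM multiplied by gene length gave whole fragments, within 0.01, for 100% of 371175 values above 0, and no 2 libraries were copies (chi-square over degrees of freedom at least 9.57 in 190 pairs).

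Values were analysed as log2(FPKM + 0.5) in R 4.3.3 with limma 3.58.1 (variance trend, two-sided), over genes with a mean of at least 1 FPKM in the libraries fitted, and genes were called at a Benjamini-Hochberg adjusted p under 0.05. Exact permutation tests of 5 against 5 were two-sided. The main fits took each organ alone; the interaction and organ contrasts took all 20 libraries. Scores are means of log2 values of listed markers. The members, gene lists and tests were chosen with earlier results of these data known; slopes on proximal, principal and intercalated scores, ratios and the fits without Myl7-rich hearts were added after seeing the data. Named genes were all members and the 3 genes of highest r with each member per organ. From each pathway list, any called gene or else the 2 of smallest p were named. Hsd11b2, Upk1a, Adipoq, Plin1, Myl7, Arhgap4, Slc14a2, Akr1b1 and Cryab were named after their values were seen. Fits were tested on simulated counts that held known changes. Of 145 listed symbols, 136 are in the table.

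Kidney and heart share animals. After removal of group means, same-animal correlations over 10987 genes ran from -0.00947 to 0.179, 3 of 10 were above 0.1, and limma with statmod 1.5.0 estimated a block correlation of 0.0621. Alternatives were a pseudocount of 0.1 or of 1, dropping the filter or raising it to 5 FPKM, quantile scaling, limma voom, the animal as replicate block, scores as covariates, other scores, and leaving out each animal in turn. Promoters are RefSeq's. Plots used Python 3.11.15 and matplotlib 3.10.9. Treatment labels could not be checked, since no gene was manipulated. Values of some single genes that the naming rule would give are not reported here.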

Additional observations from a re-analysis of the deposited data

Results flagged for a closer look

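In 36 groups of 5 libraries (9 members in 4 groups), 1 library lay far from the other 4 in 6 groups. The rule was a gap to its nearest neighbour of more than 0.71 of the group's range. Chance gives about 1 in 20 such groups for normally spread values, which trace levels are not. A group with 1 library above 0 and 4 at 0, as for Aqp4 and Aqp5 in hearts, is flagged by construction. The count of flags is therefore not a measure of excess. The only abundant case was Aqp6 in MaR1 kidneys, with 21.4 FPKM in RB037, the kidney with the highest inner medulla score. RB037 also had the highest Aqp2, at 242 FPKM, and Aqp2 lies inside the span given for Aqp6. The part of either in this value was not tested. The other flagged groups rest on few fragments. Aqp4 was found in MaR1 heart RB035 at 0.0837 FPKM and in vehicle heart RB034 at 0.00740 FPKM, and is listed at 0 in the other hearts. Aqp5 was found in 1 MaR1 heart, RB035, at 0.0350 FPKM. Aqp8 was highest in MaR1 heart RB037 at 0.0983 FPKM and in vehicle kidney RB031 at 0.231 FPKM.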

How the results depend on the processing

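Members' organ differences kept their call under all alternatives run, and no aquaporin was called for treatment or interaction under any. The count of genes called in kidney moved from 0 to 6 with the animal as replicate block, to 7 in 1 model of both organs with no replicate block, and to between 0 and 1 when leaving out each animal; the block changed no aquaporin call. Interaction counts were 1 with a pseudocount of 0.1 and 0 to 3 when leaving out each animal. At a mean FPKM of at least 5, the organ count was 7292. Genes called on the medulla score numbered 53 with a pseudocount of 0.1, 84 with no filter, 626 with no treatment term, 101 without Slc14a1, Wnt7b, Slc4a11 and Fst, 784 with the log2 of summed FPKM, 534 with thick ascending limb markers, and 0 (without RB039) to 508 (without RB030) when leaving out each animal. The Aqp4 slope lost its call with summed FPKM (adjusted p = 0.105) and with thick limb markers (adjusted p = 0.132; range over all alternatives 0.00111 to 0.346). With no treatment term, Aqp2 (adjusted p = 0.00736; range 0.00736 to 0.783) and Aqp6 (adjusted p = 0.0471; range 0.0471 to 0.901) were called.

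The following values changed sign. With the medulla score as covariate, kidney differences were -0.046 for Aqp1, -0.065 for Aqp2, -0.45 for Aqp4, -0.20 for Aqp6 and 0.15 for Aqp11. Aqp1 was at -0.076 with the thick limb score as covariate, Aqp11 at 0.083 with the convoluted proximal score, and Aqp7 at -0.063 without the Upk1a-rich kidneys. Interaction values with a pseudocount of 0.1 and with limma voom were -0.12 and -1.04 for Aqp2 and -0.35 and -1.31 for Aqp6. Slopes on summed FPKM and thick limb markers were 0.073 and 0.17 for Aqp11, and that of Aqp7 on thick limb markers was 0.0012. On the convoluted score Aqp1 was at -0.34 with quantile scaling and -0.00031 with voom. On the intercalated score Aqp6 was at 0.14 with quantile scaling, and on the principal cell score Aqp2 was at -0.22 with a pseudocount of 0.1. When leaving out each animal, Aqp7 ranged from -0.059 to 0.11 in kidney, -0.062 to 0.31 in heart and -0.29 to 0.073 for the interaction, and Aqp6 from -0.056 to 0.17 for the interaction. Slopes ranged from -0.023 to 0.33 for Aqp3 on the medulla score, -0.10 to 0.32 for Aqp7 and -0.077 to 0.46 for Aqp11 on the straight score, -0.15 to 0.40 for Aqp1 on the convoluted score, -0.36 to 0.36 for Aqp6 and -1.34 to 1.42 for Aqp2 on their cell scores. The causes were not tested. Aqp4 drops out at a mean FPKM of at least 5 and in models of both organs. With 5 animals a group, and fewer than 20 fragments per heart for 7 members, small changes and those in trace transcripts were not detectable.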
